A study of Arabidopsis thaliana with 16 samples.

Results

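The 10 loci described here are the core of the abscisic acid response of Arabidopsis thaliana, taken by locus identifier from the 32833 loci of an expression table and followed through 8 groups of petals and seedlings. By role they are NCED3 (AT3G14440), an enzyme of hormone synthesis; the protein phosphatases ABI1 (AT4G26080), ABI2 (AT5G57050) and HAB1 (AT1G72770); the bZIP transcription factors ABF1 (AT1G49720), ABF2 (AT1G45249), ABF3 (AT4G34000), ABF4 (AT3G19290) and ABI5 (AT2G36270); and P5CS1 (AT2G39800), an enzyme of proline synthesis. All 10 were matched, and all 10 were above 0 in every library, from 0.581 to 254 FPKM (fragments per kilobase of transcript, scaled to the sequenced fragments of the library). They were chosen by name and not by a threshold on a measured value, but with earlier results of these data known.

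Abscisic acid is the hormone with which plants slow growth and close stomata under drought, and it acts in seed dormancy and in the ageing of petals. It is made from carotenoids, with the cleavage by NCED enzymes as the rate-limiting step. When receptors of the PYR/PYL family bind it, they inhibit clade A phosphatases such as ABI1, ABI2 and HAB1, and SnRK2 kinases then phosphorylate ABF and ABI5 factors, which bind promoters with an ACGTG core. Genes of the phosphatases are themselves induced by the hormone, and P5CS1 is a drought-induced target that makes the protective amino acid proline.

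The study concerns CONSTANS (CO), a regulator of photoperiodic flowering, and the ageing of flowers. Each of the 8 groups held 2 libraries labelled as biological replicates, so n = 2 throughout. Whole seedlings of the wild type Col-0 and of 35S:CO were taken at an age of 10 days, 16 hours after lights on (ZT16). Petals of these genotypes and of co-10 were taken at ZT4 and ZT16, all under days of 16 hours of light and 8 hours of dark. The line 35S:CO expresses CO from the constitutive 35S promoter in most cells and at all times, and co-10 is a mutant that lacks CO function. The labels give neither the petal stage nor the number of plants in a sample, nor whether 35S:CO is 1 insertion line.

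CO itself stood at 297 to 315 FPKM in 35S:CO seedlings against 1.91 to 2.1 in Col-0, and at 414 to 625 in 35S:CO petals against 0.0376 to 0.703 in Col-0. In co-10 petals it was at 0.0256 to 0.26, a range that overlaps that of Col-0, so the level of CO mRNA does not separate these genotypes. The 5 petal identity genes summed to 985 to 2380 FPKM in petals and 7.13 to 20.3 in seedlings, and the 5 green tissue genes to 319 to 2530 and 9860 to 11100, as the labels say. Of 6 pollen and anther markers 4 (MS2, AT5G07230, ATA7 and AMS) were at 0 in every petal library, but VGD1, a pectin methylesterase of mature pollen, was at 429 to 2830 FPKM there. Petal libraries were shallower than seedling libraries, at an estimated 5200000 to 22000000 reads against 56000000 to 63300000, and 3.82% to 48.8% of their summed FPKM came from 4 ribosomal RNA loci, against 0.108% to 0.61%.

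The promoters of ABF3, P5CS1, ABF1, ABI1 and ABI5 are shown first, because ABF factors and CO are both known to act on short DNA motifs. Each window is the 250 bases before the RefSeq start in TAIR10.1, 5′ to 3′ on the gene's strand. Capitals mark ACGTG (or CACGT on the other strand), the core of the abscisic acid response element, and CCACA (or TGTGG), which CO binds together with NF-Y proteins. ABF3 (chr4:16295084-16295333, plus strand), which was lower in 35S:CO petals than in those of Col-0 and of co-10, holds 1 ACGTG core. P5CS1 (chr2:16603320-16603569, minus strand) holds 1 CCACA. ABF1 (chr1:18399753-18400002, plus strand), which differed most between times of day, holds 2 ACGTG cores, and ABI1 (chr4:13222377-13222626, minus strand), which followed the same times, holds no match to either. ABI5 (chr2:15207637-15207886, minus strand), which differed most between tissues, has 7 ACGTG matches, which lie at 4 places because CACGTG reads as ACGTG on both strands.
ABF3: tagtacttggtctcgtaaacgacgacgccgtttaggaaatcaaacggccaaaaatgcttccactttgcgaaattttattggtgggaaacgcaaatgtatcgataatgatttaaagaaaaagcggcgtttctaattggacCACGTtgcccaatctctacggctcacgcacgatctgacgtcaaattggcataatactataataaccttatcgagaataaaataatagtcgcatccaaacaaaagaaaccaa
P5CS1: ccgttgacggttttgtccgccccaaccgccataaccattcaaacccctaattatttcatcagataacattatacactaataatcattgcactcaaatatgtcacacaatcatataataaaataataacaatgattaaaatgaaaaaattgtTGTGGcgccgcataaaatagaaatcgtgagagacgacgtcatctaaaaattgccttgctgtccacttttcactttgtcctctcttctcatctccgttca
ABF1: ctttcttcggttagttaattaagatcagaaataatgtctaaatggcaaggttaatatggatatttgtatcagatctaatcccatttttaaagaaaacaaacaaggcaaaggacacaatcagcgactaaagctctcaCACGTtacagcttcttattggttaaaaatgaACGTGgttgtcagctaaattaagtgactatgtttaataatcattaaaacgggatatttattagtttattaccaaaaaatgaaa
ABI1: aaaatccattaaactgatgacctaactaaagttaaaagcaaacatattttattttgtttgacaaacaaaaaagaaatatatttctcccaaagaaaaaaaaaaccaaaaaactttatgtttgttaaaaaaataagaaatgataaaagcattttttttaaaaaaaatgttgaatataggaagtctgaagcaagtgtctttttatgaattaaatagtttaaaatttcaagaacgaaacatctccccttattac
ABI5: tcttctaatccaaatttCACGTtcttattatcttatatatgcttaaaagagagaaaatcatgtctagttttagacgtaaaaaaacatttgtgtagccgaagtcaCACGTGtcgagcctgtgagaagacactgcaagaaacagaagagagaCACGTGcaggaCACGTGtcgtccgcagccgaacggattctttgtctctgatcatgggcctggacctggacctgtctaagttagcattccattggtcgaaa

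Of the 10 windows, 5 held ACGTG (ABF1, ABF3, ABF4, ABI5 and HAB1), against 22.9% of the 27443 protein-coding loci. CCACA was found in 3 (ABI2, NCED3 and P5CS1), against 28.4% of loci, and the evening element AAAATATCT (or AGATATTTT) in ABI2 alone, against 2.4%. These matches describe letters in these windows and are not binding sites.

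The transcribed regions lie, in TAIR10.1, at chr3:4831286-4834015 for NCED3 and chr4:13219915-13222376 for ABI1, both on the minus strand. ABI2 lies at chr5:23087122-23089631 and HAB1 at chr1:27389948-27393327, both on the plus strand. ABF1 at chr1:18400003-18402628, ABF3 at chr4:16295334-16298285 and ABF4 at chr3:6687042-6690123 are on the plus strand, and ABF2 at chr1:17165125-17167924, ABI5 at chr2:15204659-15207636 and P5CS1 at chr2:16598072-16603319 are on the minus strand. No stretch of 75 exonic bases of any of the 10 occurs elsewhere in the genome.

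**Figure D1:**
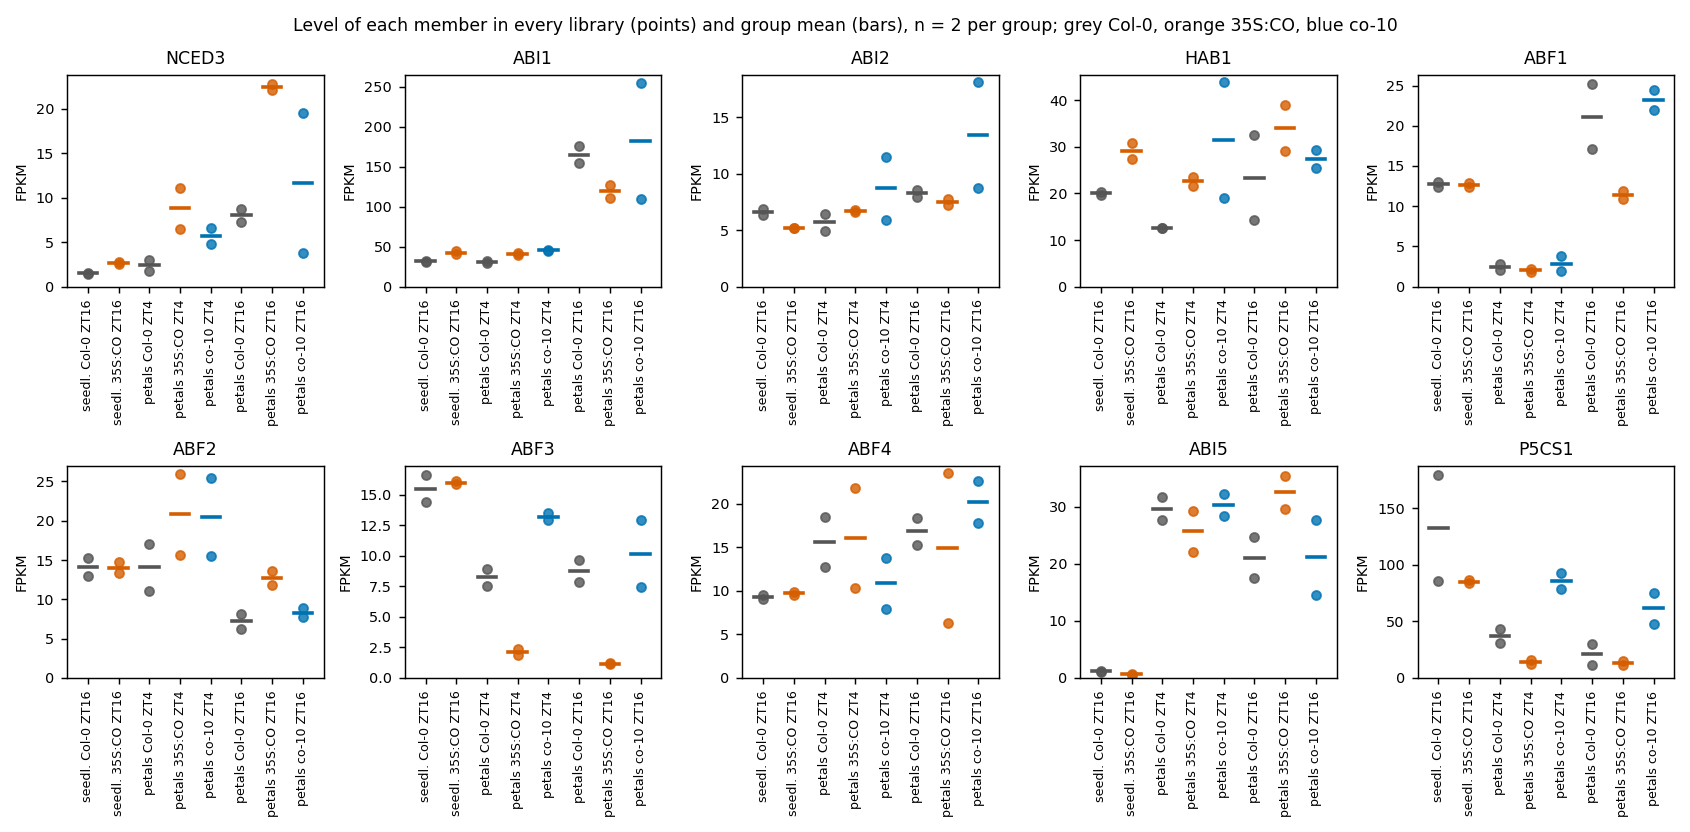
FPKM of the 10 genes in each of the 16 libraries, with 1 point per library and a bar at the mean of each group of 2 (grey Col-0, orange 35S:CO, blue co-10). ABF3 is lowest in 35S:CO petals (1.13 to 2.36), and ABI5 is near 1 FPKM in seedlings and 14.5 to 35.4 in petals. ABF1 and ABI1 are higher in petals at ZT16 than at ZT4. ABF1 in seedlings (12.4 to 13) is above 35S:CO petals at ZT16 (10.9 and 11.9).

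Levels spanned the groups very unequally. The ratio of the highest to the lowest group mean was 51.7 for ABI5, 15.1 for NCED3, 13.5 for ABF3, 11.4 for ABF1, 9.98 for P5CS1 and 5.8 for ABI1. It was between 2.16 and 2.89 for ABF4, ABI2, HAB1 and ABF2.

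Between 35S:CO and Col-0 petals, ABF3 was the only gene of the 10 that was called, and it was lower in 35S:CO. ABF3, a factor that activates drought-response genes and is also known to promote flowering under drought, was at 7.57 and 8.92 FPKM in the Col-0 libraries at ZT4 and at 1.86 and 2.36 in 35S:CO. At ZT16 it was at 7.87 and 9.65 in Col-0 and 1.24 and 1.13 in 35S:CO. All 4 libraries of 35S:CO petals lie below all 4 of Col-0, and the means differ 3.91-fold at ZT4 and 7.38-fold at ZT16. On the log2(FPKM + 1) scale, which understates the change of low genes, ABF3 fell by 2.15 ± 0.36 (SE) at ZT16 (limma adjusted p = 0.0146). The difference at ZT4 was -1.57 ± 0.36 with an adjusted p of 0.196.

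Called at an adjusted p under 0.05 at ZT16 was 1 of the 10, lower, where 0.285% of the 17876 loci tested were lower and 0.856% higher in 35S:CO. At ZT4 it was 0 of 10, beside 0.106% of loci in either direction; 3 of the 10 (ABF3, P5CS1 and NCED3) and 1109 of the loci had an unadjusted p under 0.05. Over the mean of both times, a comparison chosen after seeing the data, ABF3 fell by 1.86 ± 0.25 (adjusted p = 0.00447), again as the only gene of the 10, beside 0.179% of loci lower and 0.755% higher. The call at ZT16 was lost without either library of Col-0 or of 35S:CO at ZT16 (differences from -2.28 to -2.02, adjusted p from 0.0868 to 0.164), while that over both times kept its call in all 18 alternatives. The median difference of the 10 was 0.09 at ZT4 and -0.27 at ZT16, beside -0.07 and 0 over all loci.

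In co-10 petals ABF3 stood at 13.5 and 12.9 FPKM at ZT4 and 7.47 and 12.9 at ZT16. The ZT4 values are above both of Col-0 at that time, and those at ZT16 overlap them. Set against co-10, ABF3 in 35S:CO fell by 2.2 ± 0.36 at ZT4 (limma adjusted p = 0.031) and by 2.31 ± 0.36 at ZT16 (adjusted p = 0.0107). The order of ABF3 levels was seedlings of both genotypes at 14.4 to 16.6 FPKM, with no gap between them, then the 4 petal groups of co-10 and Col-0, of which neighbours overlap, then 35S:CO petals at ZT4 and last at ZT16. Between 35S:CO and Col-0 seedlings the ABF3 difference was 0.05 ± 0.10 (adjusted p = 0.772), with 16.6 and 14.4 FPKM in Col-0 and 15.9 and 16.1 in 35S:CO. It was -0.05 without Col-0 replicate 2.

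P5CS1 was also lower in 35S:CO than in co-10. This enzyme of the first steps of proline synthesis was at 92.8 and 78.9 FPKM in co-10 petals at ZT4, 43.2 and 30.9 in Col-0 and 16.3 and 12.4 in 35S:CO, with no overlap between the 3 genotypes. At ZT16 it was at 75.4 and 47.4 in co-10, 11.4 and 30.2 in Col-0 and 11.2 and 15.4 in 35S:CO, where Col-0 and 35S:CO overlap. P5CS1 was lower in 35S:CO than in co-10 5.98-fold at ZT4 and 4.62-fold at ZT16, and fell by 2.51 ± 0.43 (limma adjusted p = 0.0395) and by 2.1 ± 0.43 (adjusted p = 0.049) on the log2 scale. Against Col-0, the co-10 values differed by 1.20 ± 0.43 (adjusted p = 0.537) and 1.63 ± 0.43 (adjusted p = 1), and those of 35S:CO by -1.30 ± 0.43 (adjusted p = 0.537) and -0.48 ± 0.43 (adjusted p = 0.869), none of them called. The last of these was 0.19 without Col-0 ZT16 replicate 2, the library at 30.2 FPKM. P5CS1 levels were highest in seedlings of Col-0 (179 and 86), seedlings of 35S:CO (83.7 and 86.3) and co-10 petals at ZT4, and the 35S:CO seedlings overlap with both others.

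ABF3 and P5CS1 were the 2 of 10 called lower in 35S:CO than in co-10, at each time. Among all loci 0.0951% were lower and 0.224% higher at ZT4, and 0.246% and 0.682% at ZT16. Over both times, ABF3 fell by 2.25 ± 0.25 (adjusted p = 0.00118) and P5CS1 by 2.31 ± 0.30 (adjusted p = 0.00336), beside 0.912% of loci lower and 1.16% higher. Both of these held in all 18 alternatives. At single times the calls were less stable. The ABF3 call at ZT4 was lost without any 1 of 9 of the 12 petal libraries, all except co-10 ZT4 replicate 1 and both of co-10 at ZT16 (differences from -2.31 to -2.08, adjusted p from 0.0591 to 0.227), and at ZT16 without either 35S:CO library of that time or co-10 replicate 2 (-2.35 to -1.95, adjusted p from 0.101 to 0.131). The P5CS1 call at ZT4 was lost without either library of Col-0 at ZT4, any of the 4 of 35S:CO, or co-10 ZT4 replicate 2 (-2.69 to -2.32, adjusted p from 0.0712 to 0.224). At ZT16 it was lost without either library of Col-0 at ZT4, any of 35S:CO, or either of co-10 at ZT16 (-2.43 to -1.77, adjusted p from 0.076 to 0.322). The P5CS1 call was also lost at both times with an added 0.1 FPKM (adjusted p = 0.0559 at ZT4 and 0.0799 at ZT16) and with no filter on low values (0.0777 and 0.0893). At ZT16 it was lost as well when libraries were rescaled without ribosomal RNA (adjusted p = 0.0656) and with the replicate block (-2.1, adjusted p = 0.0561). The comparisons with co-10 and with Col-0 share the 35S:CO libraries.

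Between co-10 and Col-0, 0 of the 10 were called at ZT4 or at ZT16 by limma, beside 0.0224% of loci at each time, and 0 over both times, beside 0.0392%. An unadjusted p under 0.05 was reached by HAB1 and P5CS1 of the 10 at ZT4 and over both times and by P5CS1 at ZT16, and by 1430, 393 and 855 of all loci at ZT4, at ZT16 and over both times. P5CS1 differed by 1.42 ± 0.30 over both times (adjusted p = 0.349). HAB1, a phosphatase that restrains stomatal closure, was at 12.5 and 12.5 FPKM in Col-0 petals at ZT4 and 19.0 and 43.9 in co-10. The value of 43.9 is from co-10 replicate 2, the library with the fewest estimated reads (5200000).

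**Figure D2:**
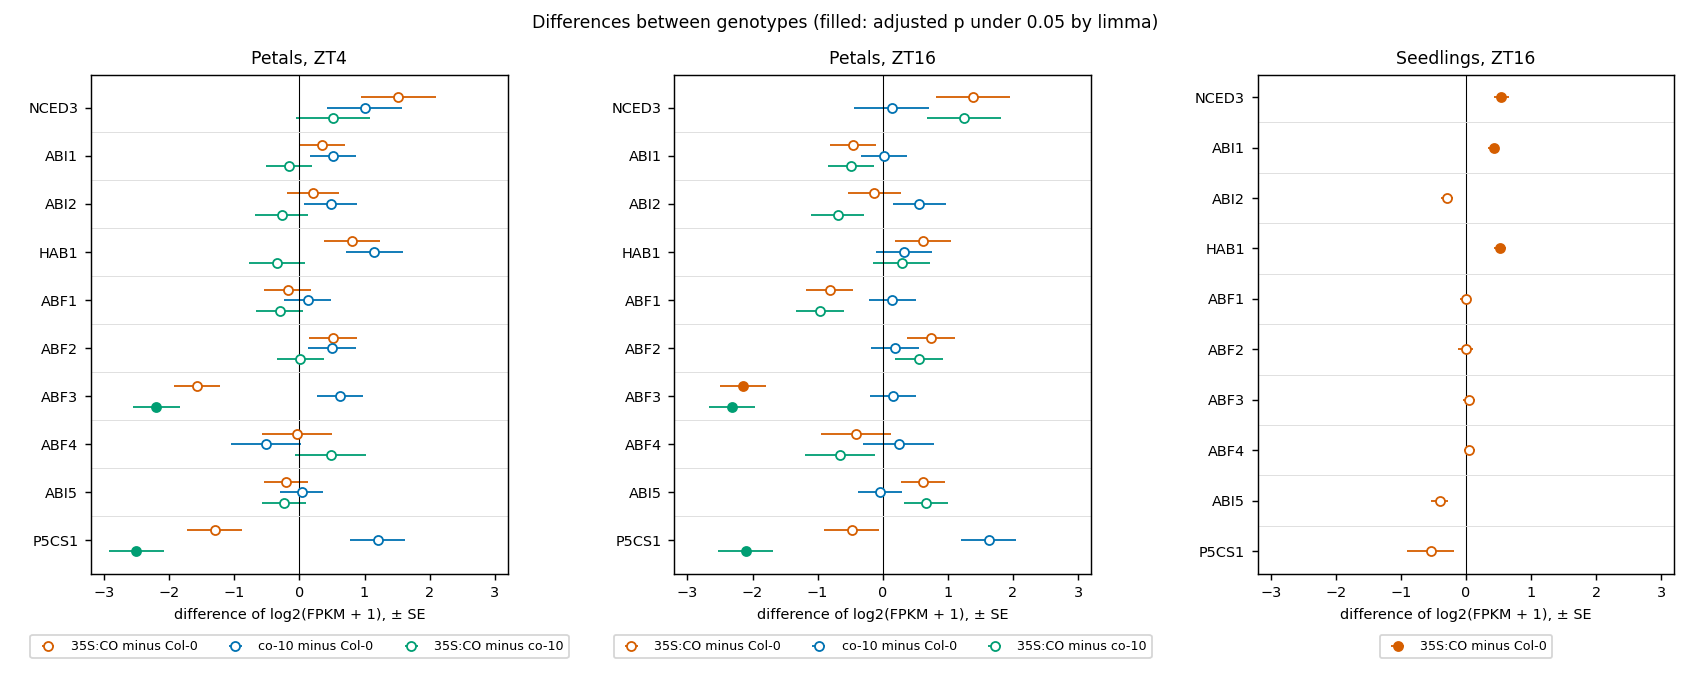
Difference of mean log2(FPKM + 1) ± SE between genotypes for the 10 genes in petals at ZT4, petals at ZT16 and seedlings (orange 35S:CO minus Col-0, blue co-10 minus Col-0, green 35S:CO minus co-10, filled where the limma adjusted p was under 0.05). ABF3 in petals is at -2.15 and -1.57 against Col-0 and near 0 (0.05) in seedlings, and P5CS1 is called against co-10 at both times.

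Some markers of guard cells, pollen, petals and phloem also differed between these genotypes. FAMA, the factor that sets guard cell fate, was at 1.09 to 2.35 FPKM in Col-0 petals, 0 to 0.968 in 35S:CO and 3.27 to 5.36 in co-10, and over both times fell by 1.92 ± 0.31 in 35S:CO against co-10 (adjusted p = 0.0122). The 3 guard cell markers (FAMA, KAT1 and MYB60) summed to 5.05 to 6.02 FPKM in Col-0, 4.03 to 4.82 in 35S:CO and 11.7 to 12.2 in co-10 at ZT4, and to 45.2 to 51.8, 26.7 to 31.7 and 39.7 to 55.8 at ZT16. Of the 3, KAT1 was the only one above 0 in every petal library. MYB60 was at 2.1 to 2.62 in co-10 at ZT4 and 0 to 0.397 in the other genotypes at that time. At ZT16 MYB60 was at 0.364 to 0.504 in Col-0, 0.182 to 0.517 in 35S:CO and 0.138 to 0.281 in co-10. KAT1 at ZT16 was at 43.6 to 49.1, 25.3 to 31.1 and 36.2 to 50.3, so that co-10 was not above Col-0 in either. The pollen list, of which 4 of 6 were at 0, summed to 503 to 1100 FPKM in Col-0, 634 to 816 in 35S:CO and 1440 to 1640 in co-10 at ZT4, and to 1320 to 2140, 695 to 941 and 1800 to 3160 at ZT16. VGD1 fell by 1.43 ± 0.32 over both times in 35S:CO against co-10 (adjusted p = 0.0487). SEP2, a petal identity factor, was at 131 to 146 FPKM in Col-0, 91 to 154 in 35S:CO and 56.1 to 62.1 in co-10 at ZT4, and at 130 to 136, 143 to 205 and 60 to 76.2 at ZT16, and over both times rose by 1.16 ± 0.22 in 35S:CO against co-10 (adjusted p = 0.0268). The other petal genes AP3 (0.318), PI (0.243), SEP1 (0.559) and SEP3 (0.225) were not called in that comparison (limma adjusted p from 0.278 to 0.815). The phloem genes SWEET11 and SUC2 summed to 153 to 177 FPKM in Col-0, 224 to 280 in 35S:CO and 181 to 205 in co-10 at ZT4, and to 261, 455 to 572 and 288 to 313 at ZT16. SWEET11, a sucrose exporter, rose over both times in 35S:CO by 1.12 against Col-0 (adjusted p = 0.021) and 0.89 against co-10 (adjusted p = 0.0457), and SUC2 was not called. The part of these cells and tissues in the ABF3 and P5CS1 values was not tested, and in bulk petals fewer cells of a type and less RNA per cell cannot be told apart.

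**Figure D3:**
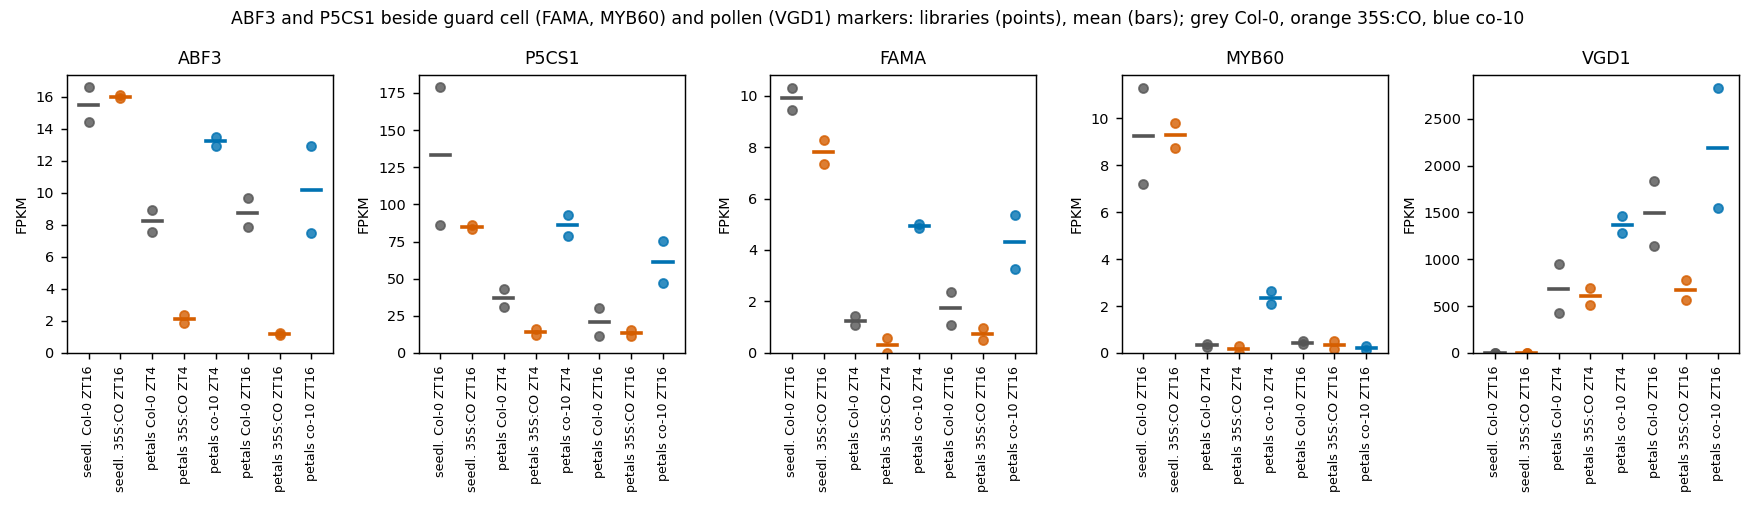
FPKM in each library (points) and group mean (bars) of ABF3 and P5CS1 beside FAMA, MYB60 and VGD1, coloured as above. FAMA runs from 0 to 0.968 in 35S:CO petals and from 3.27 to 5.36 in co-10, in the same order of genotypes as P5CS1 at ZT4.

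Of 15346 loci compared, those closest to ABF3 in pattern over the 12 petal libraries were XTH16, a wall-loosening transglucosylase/hydrolase, with a mean absolute difference of 0.338 between centred log2 values, AT1G43910 (0.407) and AT5G25340 (0.42). Closest to P5CS1 was FAMA (0.426), followed by XTH16 (0.51) and AT3G55870 (0.512). XTH16 group means were 1.79, 0.52 and 6.96 FPKM in Col-0, 35S:CO and co-10 petals at ZT4 and 3.08, 0 and 3.37 at ZT16.

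Neighbouring genes share little sequence with the called members. ABF3 shares 24 of its 2444 exonic bases (1.0%) with DJ1C (AT4G34020), which was at 21.6 to 24.5 FPKM in Col-0 petals at ZT16 and 9.85 to 11.3 in 35S:CO (difference -1.06 ± 0.75, adjusted p = 0.783). P5CS1 shares 85 of 2971 (2.9%) with AT2G39795, which stayed between 0 and 9.42 FPKM in petals. ABF1 shares 123 of 1720 (7.2%) with AT1G49730, at 0 to 1.06 in petals, and 65 (3.8%) with AT1G07587, listed at 0 there. ABI1 shares 22 of 2169 (1.0%) with MEK1 (AT4G26070), at 0 to 1.96 in petals. ABF4 shares most, 754 of 2609 (28.9%), with the noncoding locus AT3G03815, listed at 0 in all petal libraries. Whether fragments were counted by strand is not given in the sources used here, so reads in these stretches cannot be assigned.

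NCED3 was not called between genotypes in petals. It was at 1.75 and 3.02 FPKM in Col-0, 11.1 and 6.5 in 35S:CO and 6.64 and 4.83 in co-10 at ZT4, where Col-0 lies below both others. At ZT16 it was at 8.76 and 7.28 in Col-0, 22.1 and 22.8 in 35S:CO, and 3.76 and 19.5 in co-10, whose libraries lie on either side of Col-0. The differences between 35S:CO and Col-0 were 1.52 ± 0.57 (limma adjusted p = 0.651) and 1.39 ± 0.57 (adjusted p = 0.432), and 1.45 ± 0.41 over both times (adjusted p = 0.19). NCED3 was called over both times when co-10 ZT16 replicate 1 or replicate 2 was left out, which gave 2 of the 10 in place of 1.

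Other genes of synthesis and breakdown were called in these petals. CYP707A4, a hydroxylase that breaks down the hormone, was at 0 to 1.65 FPKM in Col-0 at ZT16, 27.1 to 30.9 in 35S:CO and 2 in both libraries of co-10, and rose by 4.20 ± 0.54 against Col-0 (adjusted p = 0.00389) and 3.32 ± 0.54 against co-10 (adjusted p = 0.0151). ABA1, the zeaxanthin epoxidase of an early step, was at 27 to 32.6 FPKM in Col-0, 101 to 113 in 35S:CO and 34 to 43.1 in co-10, and rose by 1.81 ± 0.29 (adjusted p = 0.0118) and 1.46 ± 0.29 (adjusted p = 0.0439). Over both times CYP707A4 rose by 2.91 ± 0.38 against Col-0 (adjusted p = 0.00392), and by 2.34 ± 0.38 against co-10 (adjusted p = 0.0131) together with CYP707A1 at 2.08 ± 0.38 (adjusted p = 0.0209). At ZT16 against Col-0 these are 1 of 7 synthesis genes tested and 1 of 6 breakdown genes tested.

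Among the targets, KIN2, a small cold- and hormone-induced protein, was at 112 to 128 FPKM in Col-0 at ZT16, 698 to 1400 in 35S:CO and 108 to 199 in co-10. It rose by 3.04 ± 0.61 against Col-0 (adjusted p = 0.0405), as 1 of 12 targets tested. Of the 10 receptors, 5 other phosphatases, 5 kinases, 3 other factors, 5 ABI5 repressors, 3 transporters and 8 proline genes tested in petals, 0 were called between genotypes by limma at either time or over both, and 14 of these 39 had an unadjusted p under 0.05 in at least 1 of the 9 comparisons.

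In seedlings, 3 of the 10 genes were higher in 35S:CO than in Col-0 and none was called lower. NCED3 was at 1.44 and 1.53 FPKM in Col-0 and 2.5 and 2.75 in 35S:CO, a rise of 0.54 ± 0.11 (adjusted p = 0.0444). ABI1 was at 32.3 and 30.7 against 44.9 and 40.5 (0.42 ± 0.09, adjusted p = 0.046). HAB1 was at 20.3 and 19.7 against 30.9 and 27.4 (0.52 ± 0.09, adjusted p = 0.0312). All 3 calls lie close to the threshold. They stand beside 5.5% of the 19214 loci called higher and 6.22% called lower.

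All 3 calls were lost with the replicate block (adjusted p from 0.0629 to 0.0902), when loci with low values were kept, and when the 16 libraries shared 1 fit. NCED3 was lost without any of the 4 libraries (0.49 to 0.59, adjusted p from 0.052 to 0.245), ABI1 without any except Col-0 replicate 1 (0.35 to 0.50, adjusted p from 0.0649 to 0.299), and HAB1 without either of 35S:CO (0.43 to 0.60, adjusted p from 0.137 to 0.236). The other 7 did not pass. ABI5 was at 1.31 and 1.01 FPKM in Col-0 and 0.581 and 0.675 in 35S:CO (-0.41 ± 0.13, adjusted p = 0.119), ABI2 at 6.85 and 6.37 against 5.17 and 5.22 (adjusted p = 0.112), and P5CS1 at 179 and 86 against 83.7 and 86.3 (adjusted p = 0.385). ABF1, ABF2, ABF3 and ABF4 overlapped between the genotypes.

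Genes of 7 pathway lists were called in seedlings. Of 6 breakdown genes tested 3 rose: CYP707A4 from 0.803 to 1.14 FPKM in Col-0 to 26 to 28.8 in 35S:CO (3.85 ± 0.12, adjusted p = 0.000618), CYP707A2 (2.12 ± 0.09, adjusted p = 0.00095) and CYP707A1 (0.55 ± 0.10, adjusted p = 0.0368). CYP707A4 passed the filter only through 35S:CO, so only a rise could be called for it. Of 5 synthesis genes 2 rose, ABA1 from 37.8 to 40.5 to 139 to 145 FPKM (1.83 ± 0.08, adjusted p = 0.00119) and ABA2, the dehydrogenase that makes abscisic aldehyde (0.60 ± 0.07, adjusted p = 0.014). Of 9 receptors 4 rose, PYL4 (1.21), PYL6 (0.91), PYL5 (0.85) and PYR1 (0.59), and 0 fell.

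Of the 5 ABI5 repressors 3 rose, AFP3 (1.22), TMAC2 (1.20) and AFP2 (0.72). The kinases went both ways, SNRK2.8 by 0.90 and SNRK2.7 by -0.68. SNRK2.7 was at 1.8 to 1.99 FPKM in Col-0 and 0.657 to 0.961 in 35S:CO. It passed the filter only through Col-0, so only a fall could be called for it. The targets also went both ways: HB12 (1.07) and HB7 (1.03), homeodomain factors induced by drought, rose and GOLS2, a galactinol synthase (-1.76), and the dehydrin COR47 (-0.65) fell among 15. In the proline list of 8, P5CS2, the housekeeping paralogue of P5CS1 (0.70), and OAT, ornithine aminotransferase (0.53), rose and the transporter PROT2 (-0.51) fell. Of the 4 other phosphatases, 3 other factors and 4 transporters tested, 0 were called by limma, and 4 of the 11 had an unadjusted p under 0.05.

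Markers of other tissues moved between the seedlings too. The phloem genes went in opposite directions, SWEET11 from 82.9 to 102 FPKM in Col-0 to 206 to 216 in 35S:CO (1.19, adjusted p = 0.00874), and SUC2, the sucrose loader of companion cells, from 51.3 to 52.9 to 33.4 to 37.9 (-0.54, adjusted p = 0.03). The petal genes summed to 7.13 to 9.32 and 19 to 20.3, with AP3, PI and SEP1 called higher. In Col-0 these were at 0.111 to 0.142, 0.104 to 0.375 and 0.597 to 1.03 FPKM. They passed the filter only through 35S:CO, so only a rise could be called. SEP2, at 0.465 to 0.809 in 35S:CO, was not tested. Of the 5 green tissue genes, which summed to 9860 to 9890 in Col-0 and 10600 to 11100 in 35S:CO, 4 rose: LHCB2.1 (3.82), LHCB1.1 (1.85), HEMA1 (1.49) and CHLH (1.22). TUA1, a tubulin on the pollen list, rose by 1.20, from 13.5 to 13.7 FPKM to 30 to 35.1. The part of these tissues in the seedling values was not tested.

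The test of whether the effect of 35S:CO differed between petals and seedlings at ZT16 called ABF3 and no other of the 10. Its interaction was -2.2 ± 0.37 (limma adjusted p = 0.0139), lower in petals, where 0.783% of 21200 loci were called lower and 0.769% higher. It was lost without either 35S:CO library of either tissue, without seedling Col-0 replicate 2 and without petal Col-0 replicate 2 (-2.24 to -2.07, adjusted p from 0.0534 to 0.0792). ABI5 had an interaction of 1.02 ± 0.42 (adjusted p = 0.429).

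Both ABF1 and ABI1 were higher in petals at ZT16 than at ZT4 in all 3 genotypes. As the labels give no petal stage, hour of day and petal age or stage cannot be told apart in any comparison of the times. ABF1, whose gene is known to be induced by cold, was at 2.76 and 2.12 FPKM at ZT4 and 25.2 and 17.1 at ZT16 in Col-0 petals. It was at 2.19 and 1.88, then 10.9 and 11.9 in 35S:CO, and at 3.83 and 1.89, then 21.9 and 24.5 in co-10. No library of ZT4 reaches any of ZT16, and ABF1 at ZT16 was lower in both 35S:CO libraries than in all 4 of the other genotypes. The means rose 8.67-fold in Col-0, 5.61-fold in 35S:CO and 8.11-fold in co-10, or by 2.67 ± 0.36 (limma adjusted p = 0.000914), 2.03 ± 0.36 (adjusted p = 0.0128) and 2.69 ± 0.36 (adjusted p = 0.00107) on the log2 scale.

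ABI1, the phosphatase whose dominant mutation makes plants insensitive to the hormone, was at 30.1 and 32.7 FPKM at ZT4 and 176 and 154 at ZT16 in Col-0. It was at 39.1 and 41.8, then 127 and 111 in 35S:CO, and at 45.7 and 44.8, then 110 and 254 in co-10. All 6 libraries of ZT4 lie below all 6 of ZT16. ABI1 rose by 2.35 ± 0.35 (adjusted p = 0.00155), 1.54 ± 0.35 (adjusted p = 0.0361) and 1.87 ± 0.35 (adjusted p = 0.00639). Seedlings at ZT16, at 30.7 to 44.9 FPKM, were at the level of petals at ZT4.

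Called higher at ZT16 were 2 of the 10 in each genotype, beside 8.56% of loci in Col-0, 3.02% in 35S:CO and 8.51% in co-10. None of the 10 was called lower, beside 6.81%, 1.21% and 4.79%. The calls of both genes in Col-0 and co-10 held in all 18 alternatives. In 35S:CO the ABF1 call was lost without any of its own 4 libraries (1.96 to 2.11, adjusted p from 0.0713 to 0.126), and the ABI1 call without any library of 35S:CO or Col-0 (1.44 to 1.63, adjusted p from 0.054 to 0.289).

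Whether the time difference itself changed with genotype was tested, and 0 of the 10 were called by limma for 35S:CO or for co-10, beside 0.0224% of loci each. None of the 10 had an unadjusted p under 0.05 in either, where 1202 and 792 of all loci did. For ABF1 the interaction with 35S:CO was -0.64 ± 0.51 (adjusted p = 0.929) and for ABI1 -0.81 ± 0.50 (adjusted p = 0.875).

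The other members did not pass between times in any genotype. ABF2 was at 11.1 and 17.1 FPKM at ZT4 and 6.28 and 8.12 at ZT16 in Col-0, 26.0 and 15.6, then 13.6 and 11.8 in 35S:CO, and 25.5 and 15.5, then 7.73 and 8.87 in co-10. The ABF2 differences were -0.86 in Col-0 (limma adjusted p = 0.141), -0.63 in 35S:CO and -1.17 in co-10 (adjusted p = 0.0574), none of them called. NCED3 differed by 1.43 ± 0.57 in Col-0 (adjusted p = 0.12), 1.30 in 35S:CO and 0.57 in co-10. The co-10 value was -0.49 without ZT16 replicate 2 and 1.62 without ZT16 replicate 1, so it has no stable direction. ABI2, the close paralogue of ABI1, was at 4.9 to 11.5 FPKM at ZT4 and 7.2 to 18.1 at ZT16, with both highest values in replicate 2 of co-10. HAB1 was at 12.5 to 43.9 and 14.2 to 38.9, and ABF4 at 7.93 to 21.8 and 6.28 to 23.5, so that the times overlap in both.

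**Figure D4:**
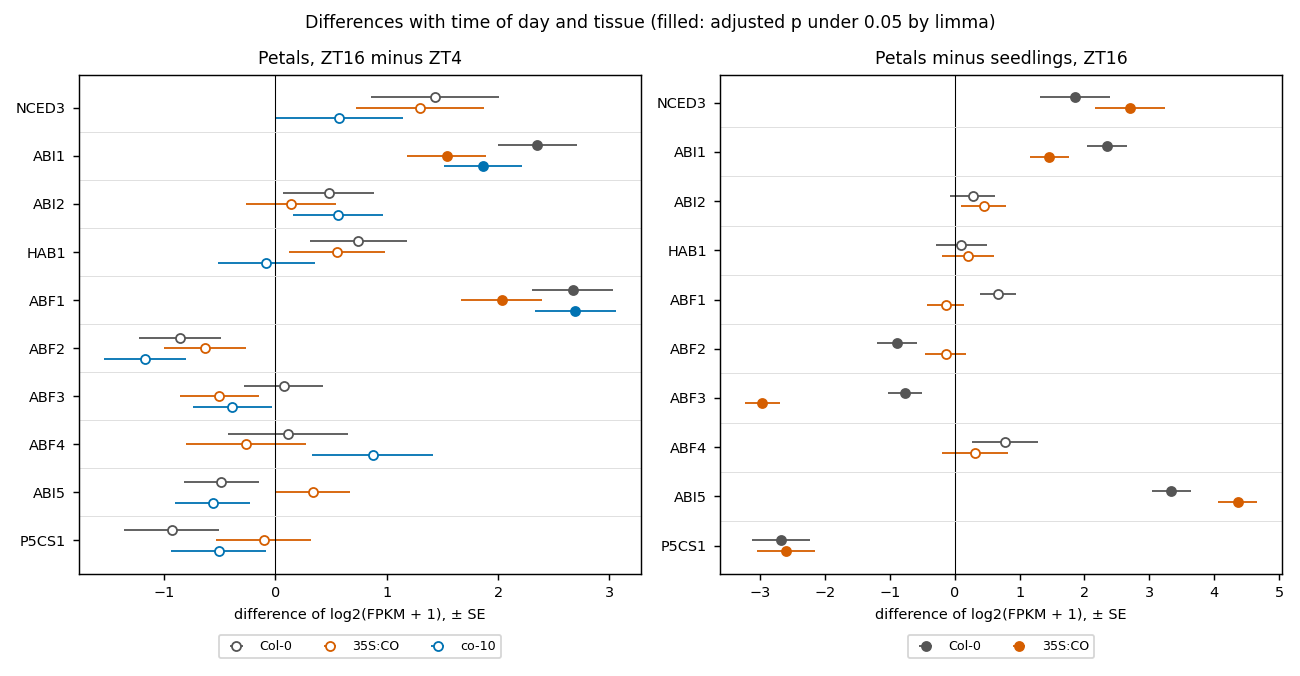
Difference of mean log2(FPKM + 1) ± SE for the 10 genes from ZT4 to ZT16 in petals of each genotype, and from seedlings to petals at ZT16 (grey Col-0, orange 35S:CO, blue co-10, filled where the limma adjusted p was under 0.05). ABF1 and ABI1 are filled for time in all 3 genotypes, and ABI5, at 3.34 and 4.36, is the farthest from 0 between tissues.

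The loci closest to ABF1 over the 12 petal libraries were CLO4, a caleosin of lipid bodies (0.194), NUDT18 (0.208) and AT4G35750 (0.226). Closest to ABI1 were AT3G26100 (0.149), the vacuolar sulfate transporter SULTR4;1 (0.158) and RD2 (0.159). RD2 group means were 51.8 to 73.2 FPKM at ZT4 and 163 to 238 at ZT16.

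NCED2, another dioxygenase of the NCED family, rose with time in all 3 genotypes. It was at 0.327 to 0.982 FPKM in Col-0 petals at ZT4 and 41 to 43.9 at ZT16, at 1.41 to 3.82 and 31 to 38 in 35S:CO, and at 0.408 to 0.802 and 22.4 to 59.7 in co-10. It rose by 4.74 ± 0.49 (adjusted p = 0.000201), 3.38 ± 0.49 (adjusted p = 0.0053) and 4.56 ± 0.49 (adjusted p = 0.000301). AAO3, the oxidase of the last step, rose by 2.51, 2.05 and 1.37. ABA1 fell by 3.03 ± 0.29 in Col-0 (adjusted p = 0.00013) and by 2.87 ± 0.29 in co-10 (adjusted p = 0.000198), from 226 to 333 FPKM over both genotypes to 27 to 43.1, and was at 152 to 192, then 101 to 113 in 35S:CO, where it was not called.

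**Figure D5:**
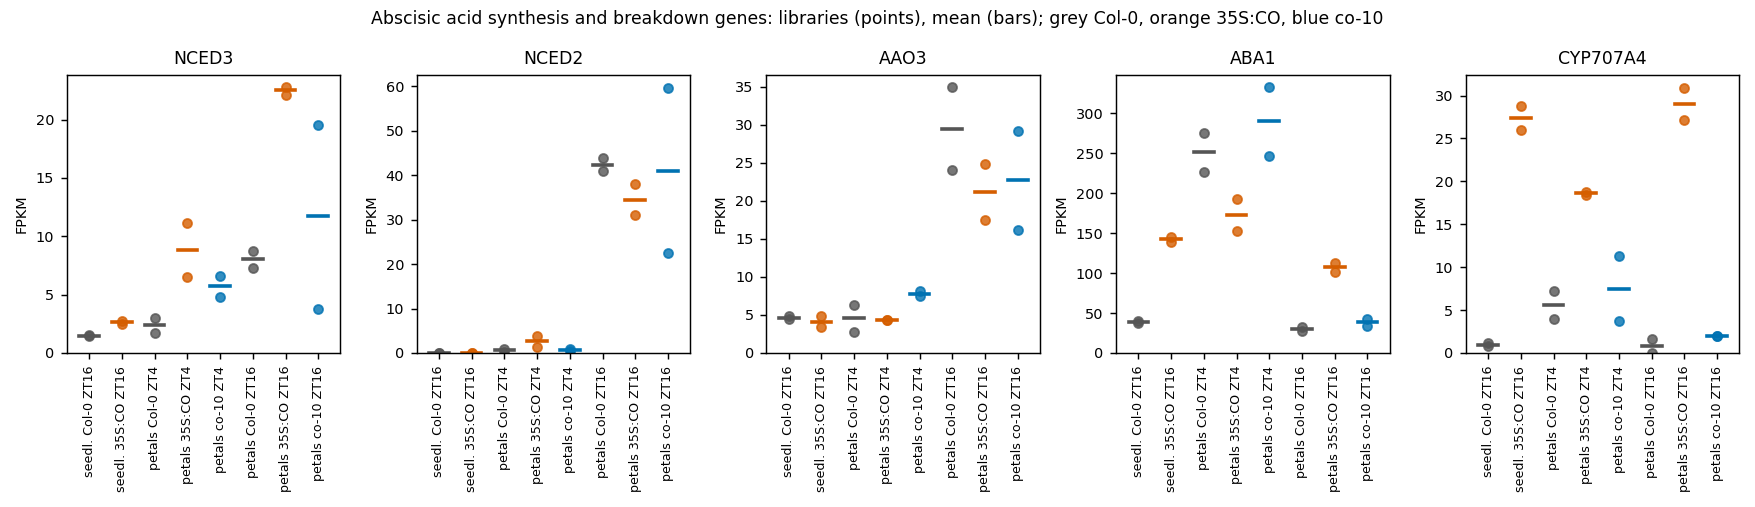
FPKM in each library (points) and group mean (bars) of NCED3, NCED2, AAO3, ABA1 and CYP707A4, coloured by genotype. NCED2 is at 0.327 to 3.82 in petals at ZT4 and 22.4 to 59.7 at ZT16, and CYP707A4 is at 18.4 to 30.9 in 35S:CO petals at both times.

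Of 7 synthesis genes tested, 2 rose and 1 fell in Col-0, 2 rose in 35S:CO, and 3 rose and 1 fell in co-10, the added one being ABA3, the molybdenum cofactor sulfurase that activates AAO3 (2.51). Of 5 kinases, SNRK2.2 and SNRK2.3 rose in each genotype, SNRK2.3 by 2.2, 1.63 and 2.72, and SNRK2.7 also in 35S:CO (1.49). Among 10 receptors, PYL3 (2.57) and PYL6 (1.60) rose and PYL2 (-4.32) and PYL4 (-1.74) fell in Col-0, and 2 rose and 1 fell in co-10. In 35S:CO 0 receptors were called by limma, and 4 (PYL2, PYL3, PYL6 and PYL8) had an unadjusted p under 0.05.

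Of 5 other phosphatases 1 rose in each genotype, HAI2 (2.08) in Col-0, HAI1 (2.05) in 35S:CO and HAI3 (2.99) in co-10. TMAC2, of the ABI5 repressors, rose by 2.27, 2.16 and 1.59, and the transporter NPF4.6 by 1.1, 1.73 and 1.14. Of 8 proline genes 4 rose in Col-0, 3 in 35S:CO and 4 in co-10 and 0 fell, with OAT at 1.5, 1.80 and 1.43 and the transporter PROT1 at 1.29, 2.11 and 1.48. P5CS1 itself did not pass in any (Col-0 -0.93, adjusted p = 0.168). Of 12 targets, ERD10, a dehydrin, fell in Col-0 (-1.23) and co-10 (-1.24), and KIN2 rose in 35S:CO (2.48).

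KAT1, a potassium channel of guard cells, also rose with time in all 3 genotypes, by 3.26, 2.55 and 2.95, beside the summed guard cell markers given above. The green tissue genes summed to 1590 to 2530 FPKM in petals at ZT4 and 319 to 1130 at ZT16, and their part in the time differences was not tested.

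Between tissues at ZT16, ABI5 differed most. ABI5, best known from seeds, where it stops germination, was at 1.01 to 1.31 FPKM in Col-0 seedlings and 17.5 to 24.6 in petals, and at 0.581 to 0.675 and 29.6 to 35.4 in 35S:CO. Every petal library of any group, at 14.5 or more, lies above every seedling library. It was higher in petals 18.2-fold in Col-0 and 51.7-fold in 35S:CO, or by 3.34 ± 0.30 (limma adjusted p = 2.25e-06) and 4.36 ± 0.30 (adjusted p = 3.34e-07). ABI5 levels among the 6 petal groups overlap from one to the next, so they give no full order. Groups farther apart can be separate. At ZT16, 35S:CO petals (29.6 and 35.4) lay above those of Col-0 (17.5 and 24.6), a difference that was not called.

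ABI1 was higher in petals by 2.35 (adjusted p = 4.81e-05) in Col-0 and 1.46 (adjusted p = 0.0016) in 35S:CO, and NCED3 by 1.86 ± 0.54 (adjusted p = 0.0103) and 2.7 ± 0.54 (adjusted p = 0.00115). P5CS1 was lower in petals, with differences of -2.67 ± 0.45 (adjusted p = 0.000312) in Col-0 and -2.60 ± 0.45 (adjusted p = 0.000414) in 35S:CO. ABF3 differed by -2.96 in 35S:CO (adjusted p = 2.5e-06), a 13.5-fold lower mean in petals.

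In Col-0, ABF2 (-0.89, adjusted p = 0.0267) and ABF3 (-0.76, adjusted p = 0.0246) were also called lower, but they lie near the median of all loci, which was -0.74 in Col-0 and -0.65 in 35S:CO. With quantile normalization, which moves the medians to -0.07 and -0.06, neither was called (-0.47 and -0.40, adjusted p = 0.209 and 0.288), while ABI5, ABI1, NCED3 and P5CS1 kept their calls and directions in both genotypes. The ABF2 call in Col-0 was also lost without either seedling library or petal replicate 1 (-1.0 to -0.73, adjusted p from 0.0584 to 0.135), the ABF3 call without the same 3 (-0.86 to -0.63, adjusted p from 0.0539 to 0.124), and the NCED3 call without petal replicate 1 (1.74, adjusted p = 0.0522).

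Called higher in petals were 3 of the 10 in each genotype and lower 3 in Col-0 and 2 in 35S:CO. Among all loci 18.9% were higher and 45.5% lower in Col-0, and 18.2% and 43.1% in 35S:CO. With quantile normalization the split over all loci was 5830 higher of 12510 called in Col-0, against 4013 of 13668, and 5622 of 11930 in 35S:CO, against 3850 of 12989. The median of the 10 was 0.48 in Col-0 and 0.26 in 35S:CO.

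All 5 other phosphatases tested were higher in petals in both genotypes, led by HAI2 (4.00 and 4.01) and HAI1 (3.54 and 4.20), with PP2CA, HAI3 and HAB2. HAI1 was at 3.37 to 5.17 FPKM in Col-0 seedlings and 51.5 to 68.6 in petals. Of 10 receptors 4 were higher in Col-0, led by PYL3 (3.87) and PYL6 (2.92), and 5 were higher and 1 lower in 35S:CO. HAI3 and PYL3, at most 0.103 and 0.47 FPKM in seedlings, passed the filter through petals alone. Only a higher level in petals could be called for them. NCED2 led the synthesis genes (5.36 and 5.04), with ABA4 the gene called lower (-1.76 and -1.36).

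The targets split. In Col-0 petals HB7 (4.48), HB12 (3.67), COR47 (3.59), ERD14 (3.15), RD26 (3.05) and ERD10 (2.88) were higher and RD29A (-4.36) lower among 15. Also called lower were LTI30, GOLS2 and RD29B, which are listed at 0 in both Col-0 petal libraries, against 19.6 to 20.6, 7.83 to 9.19 and 1.17 to 3.49 FPKM in Col-0 seedlings, so that no fold is given. LTI30, GOLS2 and RD29B passed the filter through seedlings alone, so only a lower level in petals could be called for them. RD29A, the classic reporter gene of drought and cold, was at 26.8 to 41.4 FPKM in Col-0 seedlings and 0.476 to 0.889 in petals. In the proline list, OAT (3.64 and 3.09), PROT1 (3.26 and 3.99) and PRODH1, the dehydrogenase that degrades proline (2.92 and 3.96), were higher, and P5CR (-1.63 and -1.70), the reductase of the last step, was lower, as P5CS1 was.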

How the data were processed

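RNA from 16 samples was sequenced with a stranded mRNA kit. The values are FPKM, deposited by the authors as 1 table with 1 column per library; the unit was read from the values. Per the submitters' processing notes, HISAT2, FastQC and TAIR10 were used; no source used here gives the quantifier, annotation release or strand setting. All 16 columns were used, and no column was left out.

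Differences of log2(FPKM + 1) were tested with limma 3.58.1 (trended, robust; statmod 1.5.0, R 4.3.3) for loci that reached 1 FPKM in 2 or more libraries. The petal fit had 12 libraries and 6 group means, the seedling fit 4 and 2, and tissues were compared over 16 and 8. All 10 members passed the filter in each fit. Calls are two-sided at a Benjamini-Hochberg adjusted p under 0.05 over all loci tested, in 18 comparisons. Of these, 3 average both times and were chosen after seeing the data. The p-values rest on the spread between 2 replicates per group, pooled over all groups of a fit and moderated by limma over all loci. They do not measure the spread of the compared groups alone. The fit was tested on simulated data.

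Members and lists were chosen with earlier results of these data known. Named were all members, list genes called between genotypes, for time and tissue those of the largest differences each way per list with a mean log2 of at least 1, and, for each member called in petals, the 3 loci nearest to it in pattern. Depth was estimated from the steps between low values at the 21307 loci with 1 transcript. Within 0.02 of a whole read lay 45.6% to 50.1% of low values in seedlings and 24.2% to 40.6% in petals, against 4% if even, so reads could not be recovered and no counting interval is given. Genes were matched to RefSeq TAIR10.1 by locus. Alternatives were an added 0.1 FPKM, no filter, quantile normalization, rescaling without ribosomal RNA, a replicate block, 1 fit over 16 libraries and leaving out each library.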

Additional observations from a re-analysis of the deposited data

Results flagged for a closer look

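Among the 10 genes and the pathway lists, the effect of 35S:CO at ZT16 differed between petals and seedlings in 4 genes by the interaction test of limma, where 329 of 21200 loci were called, among them the petal marker SEP1 (-1.96 ± 0.36, adjusted p = 0.0213). ABF3 had an interaction of -2.2 ± 0.37 (adjusted p = 0.0139), from a lower level in 35S:CO petals and nearly equal levels in seedlings. CYP707A2, a hydroxylase of hormone breakdown, had -1.72 ± 0.33 (adjusted p = 0.0248), with 4.07 to 4.1 FPKM in Col-0 seedlings and 20.5 to 21.8 in 35S:CO but 0.428 at most in petals at ZT16. ERD10, a dehydrin, had 1.91 ± 0.37 (adjusted p = 0.0302), with 615 to 694 FPKM in Col-0 petals and 1360 to 1920 in 35S:CO, and 74.7 to 104 and 56 to 59 in seedlings. GOLS2, a galactinol synthase, had 1.76 ± 0.17 (adjusted p = 0.000498), and is listed at 0 in all petal libraries, with 7.83 to 9.19 FPKM in Col-0 seedlings and 1.64 to 1.95 in 35S:CO. For CYP707A2 and GOLS2, which are at or near 0 in petals at ZT16, the interaction restates the seedling difference and measures no response of petals.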

How the results depend on the processing

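No called difference of the 10 genes changed direction under any alternative run. Of their 95 differences between 2 groups that were not called, 30 turned sign without 1 library of those groups. Counts of members called changed as follows. With an added 0.1 FPKM, and likewise with no filter, the 35S:CO against co-10 comparison held 1 at ZT4 (ABF3) and 1 at ZT16 (ABF3), and the time comparison in 35S:CO 1 (ABF1). Rescaled without ribosomal RNA, or with the replicate block, 35S:CO against co-10 at ZT16 held 1 (ABF3). In seedlings the count went from 3 to 0 with no filter, with the replicate block and in 1 fit over 16 libraries, and in that fit 35S:CO against Col-0 at ZT4 held 1 (ABF3); the cause was not tested. Leaving out 1 library gave 0 to 2 in seedlings, 0 to 2 for 35S:CO against co-10 at ZT4 and at ZT16, 0 to 1 for 35S:CO against Col-0 at ZT16, 1 to 2 over both times, 0 to 2 for time in 35S:CO, 2 to 3 in Col-0 and in co-10, 0 to 1 for the tissue interaction, and for petals against seedlings 3 to 7 in Col-0 and 5 to 6 in 35S:CO. A group left with 1 library is assumed to vary like the others.

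The labels do not say whether samples with the same replicate number were taken or sequenced together. Deviations of samples with the same number correlated between -0.294 and 0.219, and whether they share a batch cannot be told from these values. With the replicate block, loci called in seedlings went from 2252 to 1178. Quantile normalization moved the median time difference in co-10 from 0.214 to 0.028 and its split from 1522 higher of 2379 to 1220 of 2425, and called ABF2 there as well; the split for 35S:CO went from 540 of 757 to 566 of 996, and that of the tissue interaction from 163 of 329 to 86 of 231. Petal depth went down to an estimated 5200000 reads, and its part in the spread of genes at low levels was not tested.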
